A study of Rattus norvegicus with 12 samples.

Results

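Pubocaudalis muscle of lactating rats 1 week after simulated birth injury (1wk SBI + Lac) was set against the same muscle of non-lactating rats 3 weeks after the injury (3wk SBI), to ask which genes in early lactating muscle already sat at the later non-lactating level. The comparison uses 6 of the 12 libraries of the series, chosen by group label alone. Of the 30206 genes counted, 30 were left out because they had 0 counts in every 1-week library and at least 100 over the 3-week libraries, which left 30176, and 14596 of these had enough counts to be tested. All animals were female Sprague-Dawley rats aged 3 months at the start, and all of them, including both groups compared here, underwent simulated birth injury late in pregnancy by distending the vagina with a weighted balloon. After delivery the pups either stayed with the dam (SBI + Lac) or were removed (SBI). Each library holds the pooled RNA of 2 rats, so that n = 3 counts pools, and p-values measure the spread between such pools. Uninjured muscle was not analysed here.

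The pubocaudalis is a pelvic floor muscle that is stretched during delivery. Injured skeletal muscle clears damaged fibers with the help of macrophages, activates satellite cells that divide and fuse into new fibers carrying embryonic and neonatal myosins, and passes through a phase of matrix deposition before contractile and metabolic transcripts return. A muscle fiber that loses contact with its nerve raises the subunits of the acetylcholine receptor and the partner proteins that cluster it. Because a like level in early lactating and late non-lactating muscle can be reached in several ways, the values of non-lactating muscle at 1 week are given beside it for part of the lists and genes.

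Lactation, time and counting all changed together in this comparison and cannot be told apart within it. The 1-week columns hold whole counts, whereas 31.1 to 44.0% of genes per library in 3wk SBI carry decimals, as estimated counts do. Total counts ran from 30862144 to 39844090 in 1wk SBI + Lac and from 10082734 to 75634391 in 3wk SBI. The labelled tissue was borne out by its markers, since none of the 27 matched genes of mature fibers was at 0 in all 6 libraries and together they held 225816 to 268701 counts per 1000000 (CPM, normalized to library size) in 1wk SBI + Lac against 214557 to 286220.0 in 3wk SBI. One library stood apart. It was 3wk SBI replicate 3, the deepest of the 6. There 7 genes, of 12 listed, linked to B cells and plasma cells (below, B and plasma cell genes) summed to 367 CPM. The sum was 9.55 and 8.85 in replicates 1 and 2 and 2.68 to 7.34 in 1wk SBI + Lac. Those genes were picked after their values were seen, and led by Ighm, the constant region of immunoglobulin M, at 4.4, 3.59 and 294 CPM in 3wk SBI replicates 1 to 3. Jchain had 44.2 CPM in replicate 3 and Cxcl13, a chemokine that attracts B cells, 21.6. Mzb1 and Cd79a had 1.76 and 1.44 CPM there, against up to 0.271 and 0.31 in the other libraries compared. Cd22 (3.4 CPM) and Fcrla (0.516 CPM) stood little apart, at up to 2.68 and 0.459 in 1wk SBI + Lac. A source of the lymphoid RNA was not tested, and results that rest on this library are given with and without it. In bulk muscle fewer cells of a type and less RNA per cell cannot be told apart.

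Most genes lay close together in both groups. For 10556 of the 14596 genes tested (72.3%) the whole 95% interval of the log2 fold change, taken gene by gene without adjustment, fell between -1 and 1, that is within 2-fold. That count was not particular to this comparison. It was 10238 in 1wk SBI over 3wk SBI and 10381 in 1wk SBI + Lac over 1wk SBI. By edgeR's quasi-likelihood test with Benjamini-Hochberg adjustment, 40 genes (0.274%) were higher and 17 (0.116%) lower in 1wk SBI + Lac. Every call below needs an adjusted p under 0.05 together with a more than 2-fold difference. Without the limit on fold change 166 genes were higher and 56 lower. None of the 57 called genes overlapped between the 3 and 3 libraries, a pattern found in 17.9% of all genes tested (10.4% higher and 7.54% lower). How tightly a gene was bounded followed its abundance, since the interval lay within 2-fold for 1.42% of genes under 1 CPM, 70.5% from 1 to under 10, 96.5% from 10 to under 100 and 94% at 100 CPM or more. Non-lactating muscle at 1 week, set against the same 3wk SBI libraries in the same model, had 161 genes higher (1.1%) and 54 lower (0.37%), and 1wk SBI + Lac over 1wk SBI had 13 higher (0.0891%) and 24 lower (0.164%). Of the 57 called genes 4 had 3-week values that were all whole numbers, a share near that over all genes tested (1145 of 14596). A single library set much of the count, which dropped to 18 higher and 7 lower without 1wk SBI + Lac replicate 1 and to 23 and 9 without its replicate 3, whereas DESeq2 on all 12 libraries gave 78 and 55. Of the 57 calls, 19 were kept in each of the 6 fits that left out 1 library, and 3 were lost in all of them. Those 3 were the opioid precursor gene Penk, ENSRNOG00000070706, listed as the histone gene Hist1h4m, and ENSRNOG00000070938, which has no symbol. The other called identifier of Hist1h4m, ENSRNOG00000064025, was among the 19 kept (log2 fold change 2.12, adjusted p = 0.00216, edgeR).

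**Figure D1:**
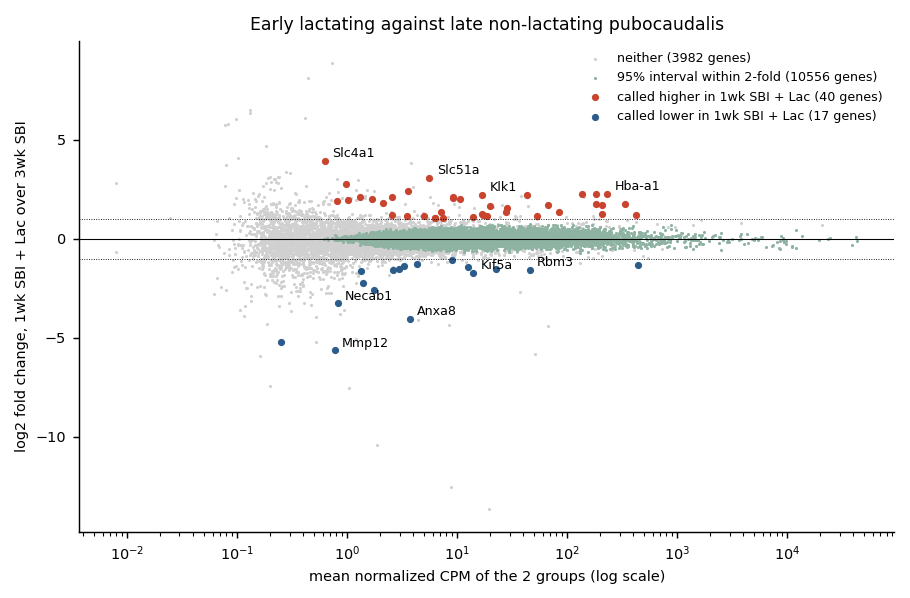
Log2 fold change of 1wk SBI + Lac over 3wk SBI (vertical) against the mean normalized CPM of the 2 groups on a log scale (horizontal), 1 point per gene; dotted lines mark a log2 fold change of -1 and 1. Genes with an interval within 2-fold fill the band around 0 from about 1 CPM upwards, and the 40 genes called higher and 17 called lower lie outside it.

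Contractile genes lay within 2-fold of the later level. Not one of the 27 tested genes of mature fast and slow fibers was called, and all 27 had an interval within 2-fold. Their median log2 fold change was -0.0096, beside -0.016 over all genes. Without 3wk SBI replicate 3, 26 were within 2-fold, the median was -0.13 and 23 of 27 lay below 0. The same list had a median of -0.45 in 1wk SBI over 3wk SBI and 0.49 in 1wk SBI + Lac over 1wk SBI. Acta1, the skeletal alpha-actin of the thin filament, had 42923, 42534 and 38454 CPM in the 3 libraries of 1wk SBI + Lac and 48613, 48694 and 39084 in 3wk SBI, with 25659.8, 23361 and 38758 in 1wk SBI. Its log2 fold change over 3wk SBI was -0.14 (95% interval -0.61 to 0.33). The groups of interest overlapped, while 1wk SBI held the 2 lowest values of the 9. Ckm, the creatine kinase that buffers ATP in fibers, had 20296, 19554 and 16643 CPM against 19379, 23549 and 16534 (interval -0.56 to 0.41). Myosin heavy chains of the fiber types gave intervals of -0.43 to 0.61 for Myh4 (type IIb), -0.75 to 0.58 for Myh2 (type IIa) and -0.51 to 0.68 for Myh7 (slow). Counts of myosin genes are uncertain where near-identical copies share reads, and Myh1 could not be told from Myh2 here because both names led to 1 identifier.

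Fuel use followed the contractile genes in part. All 17 tested genes of glycogen breakdown and glycolysis had an interval within 2-fold and a median of 0.017, against -0.40 in 1wk SBI over 3wk SBI. Without 3wk SBI replicate 3 all 17 stayed within 2-fold, with a median of -0.097 and 13 of 17 below 0. Pygm, which releases glucose units from glycogen, had 8435, 8872 and 7132 CPM in 1wk SBI + Lac against 8439.6, 10971 and 7224 in 3wk SBI. The interval of Pfkm, the muscle phosphofructokinase, was -0.50 to 0.37 and that of Ldha, the muscle lactate dehydrogenase, -0.30 to 0.43. Nuclear genes of oxidative phosphorylation had a median of -0.20, with 24 of 27 below 0 and 26 within 2-fold, and the 13 mitochondrially encoded genes a median of -0.44, with 13 of 13 below 0 and 12 within 2-fold, so neither list was centred on the later level and none of their genes was called. Without 3wk SBI replicate 3 the mitochondrially encoded genes within 2-fold numbered 4, at a median of -0.56. Their median ran from -0.57 without 1wk SBI + Lac replicate 2 (3 within 2-fold) to -0.26 without 3wk SBI replicate 1 (12 within 2-fold). The nuclear median ran from -0.33 to -0.099 in the same 2 fits. Each of the 13 mitochondrially encoded genes overlapped between the groups. Mitochondrially encoded genes took up 9.08 to 11.7% of counts in 1wk SBI + Lac against 11.7 to 14.8% in 3wk SBI. Sdha, a subunit of succinate dehydrogenase, had 364, 445 and 383 CPM against 618, 557 and 459, without overlap, and missed the call at a log2 fold change of -0.45 ± 0.17 (SE, adjusted p = 0.223, edgeR). For fatty acid and ketone use, 17 of 24 intervals were within 2-fold, the median was -0.31 (from -0.47 without 1wk SBI + Lac replicate 2 to -0.13 without 1wk SBI + Lac replicate 3) and none was called. Pdk4, which diverts pyruvate from oxidation, spread widely, with 399, 469 and 185 CPM in 1wk SBI + Lac, as against 534, 417 and 445 in 3wk SBI and 57.9, 102 and 194 in 1wk SBI, and its interval of -1.49 to 0.68 did not settle its level.

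**Figure D2:**
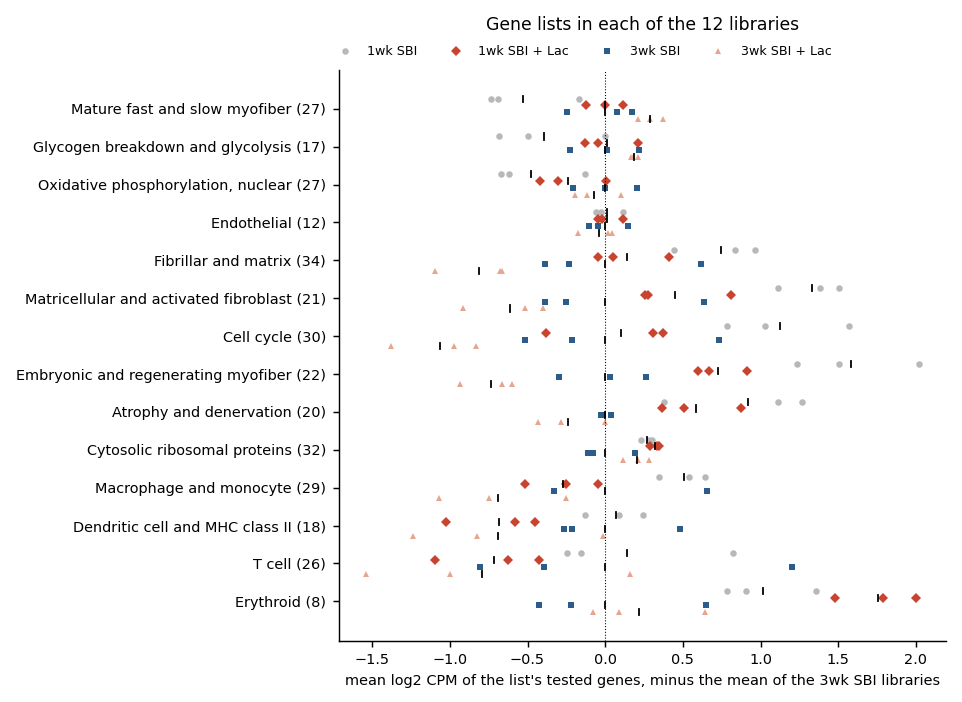
Mean log2 CPM of the tested genes of 14 lists (number of genes in brackets) in each library, relative to the mean of the 3 libraries of 3wk SBI; 1 symbol per library and a black bar for the mean of each group. In the mature fiber and glycolysis lists 1wk SBI + Lac sits around 0. All 3 of its libraries lie above every library of 3wk SBI in the regenerating, atrophy, ribosomal and erythroid lists. The square farthest to the right of its group is 3wk SBI replicate 3 in the matrix, matricellular, cell cycle, regenerating, macrophage, T cell, dendritic cell, endothelial and erythroid lists.

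Matrix genes were near the later level as a list and uneven gene by gene. Of 34 fibrillar and matrix genes, 20 had an interval within 2-fold (58.8%), 1 was called higher and 1 lower, and the median was 0.16, beside 0.66 in 1wk SBI over 3wk SBI and -0.54 in 1wk SBI + Lac over 1wk SBI. Without 3wk SBI replicate 3 the list's median was 0.50 and 30 of 34 genes lay above 0, with 3 called higher, while leaving out 1 library moved the median from -0.042 without 1wk SBI + Lac replicate 3 to 0.50 without 3wk SBI replicate 3. Col1a1, a chain of the main fibrillar collagen, is an example. It had 729, 976 and 1739 CPM in 1wk SBI + Lac against 702, 580.1 and 1757 in 3wk SBI, with the highest value of each group in replicate 3. Its interval of -0.81 to 1.17 was too wide to place it within 2-fold, whereas Col3a1, the collagen of early repair tissue, was placed there at -0.44 to 0.97. Mmp14, a membrane-bound collagenase, was placed too (-0.92 to 0.52). Col8a1, a short-chain collagen of vessel walls and remodelling tissue, was higher in 1wk SBI + Lac, at 22.9, 21.7 and 26.2 CPM against 8.8, 7.86 and 12.6, a log2 fold change of 1.24 ± 0.20 (SE, adjusted p = 0.00788, edgeR). This call was kept in all 6 fits that left out a library.

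Matricellular and activated fibroblast genes, which code for proteins that steer cells rather than bear load, gave a similar picture, with 11 of 21 intervals within 2-fold, 1 call and a median of 0.093 (from -0.053 without 1wk SBI + Lac replicate 3 to 0.47 without 3wk SBI replicate 3), against 0.90 for 1wk SBI. Spp1, which encodes osteopontin, had 4.52, 3.53 and 5.9 CPM in 1wk SBI + Lac against 5.26, 10.7 and 3.76 in 3wk SBI, but 28.3, 56.3 and 28.7 in 1wk SBI. The 2 groups compared overlapped and both lay below every 1wk SBI library, although the interval of -1.31 to 0.45 still reached past 2-fold. Tnc, tenascin C of healing tissue, ran at 16.8, 17.7 and 31.9 CPM against 10.3, 11.6 and 29, with 69.6, 90.4 and 32 in 1wk SBI. Thbs4, a thrombospondin of muscle and tendon matrix, was the 1 member called, at 288, 245 and 335 CPM against 107, 93.6 and 167, a log2 fold change of 1.24 ± 0.23 (SE, adjusted p = 0.0211, edgeR). Its call was lost in 4 of the 6 fits that left out a library, those without 1wk SBI + Lac replicates 1 or 3 or 3wk SBI replicates 1 or 2, at edgeR adjusted p-values from 0.058 to 0.085. Scx, the scleraxis factor of tendon cells, was higher as well, at 35, 21.2 and 33.9 CPM against 8.9, 10.6 and 9.1 (log2 fold change 1.66, SE 0.24, adjusted p = 0.0065, edgeR), and was kept in all 6.

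Cell cycle genes could not be placed. None of 30 cell cycle genes was called, 8 had an interval within 2-fold, and the median of -0.14 went to 0.31 without 3wk SBI replicate 3 and 0.11 without 1wk SBI + Lac replicate 1; in 1wk SBI over 3wk SBI it was 1.12. Mki67, a nuclear protein of cycling cells, had 3.15, 4.34 and 5.85 CPM in 1wk SBI + Lac, as against 2.15, 0.805 and 7.84 in 3wk SBI and 17.8, 9.51 and 9.84 in 1wk SBI. The 3wk SBI values enclosed those of 1wk SBI + Lac. Among single genes Prc1, which bundles microtubules of the dividing spindle, was placed within 2-fold of 3wk SBI at -0.87 to 0.51.

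Genes of new fibers mostly lay above the later level, although few of the differences passed the test. In the embryonic and regenerating list 16 of 22 genes had a log2 fold change above 0, 13 did so without overlap between the groups (10.4% of all genes tested did), 7 intervals were within 2-fold and the median was 0.62, beside 1.37 in 1wk SBI over 3wk SBI. The median kept its sign without any single library, from 0.53 to 0.75 over all alternatives. Only Actc1 was called, the cardiac alpha-actin that skeletal muscle uses before birth and in new fibers. It had 412, 538 and 614 CPM in 1wk SBI + Lac, as against 195, 94.6 and 174 in 3wk SBI and 2137, 949 and 1057 in 1wk SBI, an order in which the 3 groups did not overlap. The log2 fold change over 3wk SBI was 1.75 ± 0.34 (SE, adjusted p = 0.0275, edgeR). Mymk, the membrane protein that fuses myoblasts, had 10.3, 7.56 and 10.6 CPM against 1.72, 0.991 and 3.02 and missed the threshold at a log2 fold change of 2.12 ± 0.52 (SE, adjusted p = 0.0848, edgeR). The embryonic myosin Myh3 had 431, 446 and 764 CPM against 557, 97.5 and 258, where 3wk SBI replicate 1 reached the range of 1wk SBI + Lac. Its neonatal partner Myh8 had 177, 220.1 and 303 against 97.6, 55 and 192 CPM and 1662, 473 and 631 in 1wk SBI. Myog, the factor that drives myoblast differentiation, was within 2-fold (-0.10 to 0.72). Pax7, which marks satellite cells, went the other way at 1.71, 3.39 and 2.94 CPM against 5.15, 4.27 and 4.85, a log2 fold change of -0.82 ± 0.30 (SE, adjusted p = 0.211, edgeR), and was not called. Mustn1, a nuclear protein of growing muscle and cartilage, was called higher at 315, 287 and 359 CPM against 161, 64.1 and 72.2 (log2 fold change 1.70, SE 0.34, adjusted p = 0.0346, edgeR). Actc1 and Mustn1 each kept their call only in the fit without 3wk SBI replicate 1 and lost it in the other 5, at edgeR adjusted p-values from 0.0562 to 0.0924 and from 0.0769 to 0.111.

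**Figure D3:**
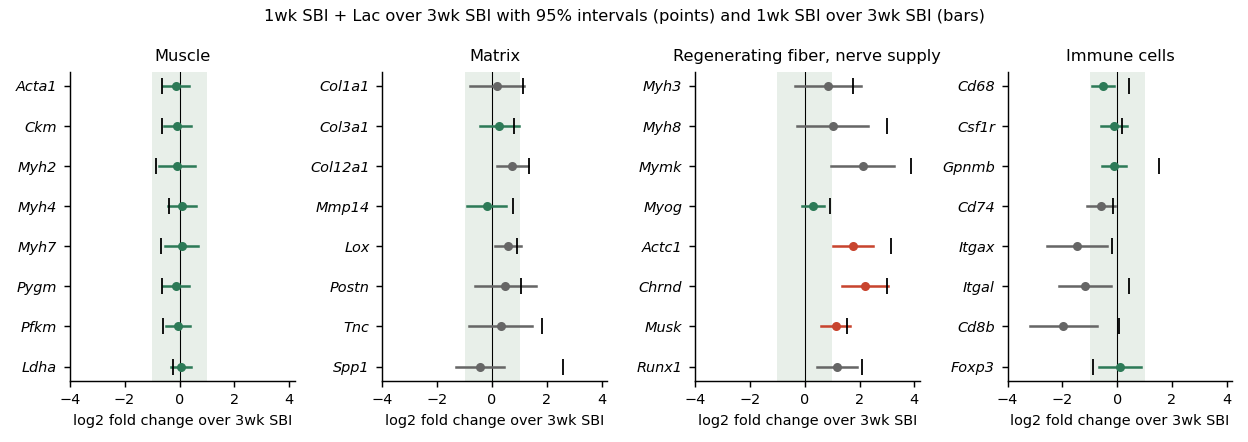
Log2 fold change over 3wk SBI of 32 named genes in 4 groups: the point and line give 1wk SBI + Lac with its 95% interval (green where it lies within the shaded 2-fold band, red where the gene was called, grey otherwise), and the upright black bar gives 1wk SBI. The 8 muscle genes lie inside the band, the called genes Actc1, Chrnd and Musk have estimates to its right, and Cd8b and Itgax have estimates to its left without a call.

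Chrnd and Musk, which belong to the synapse of nerve and muscle, were higher in 1wk SBI + Lac. Of 20 atrophy and denervation genes 14 lay above 0, 8 of them without overlap (10.4% of all genes tested), and these 2 were called higher (0.274% of all genes); the median was 0.31 (0.82 for 1wk SBI). Chrnd, the delta subunit of the muscle acetylcholine receptor, had 90.1, 50.2 and 73.3 CPM in 1wk SBI + Lac against 15.2, 13.7 and 17 in 3wk SBI, a log2 fold change of 2.21 ± 0.38 (SE, adjusted p = 0.0212, edgeR). Every 1wk SBI + Lac library was above every 3wk SBI library, and 1wk SBI had 169.9, 145 and 55.6 CPM. Musk, the kinase that organizes the postsynaptic membrane, had 27, 27.1 and 22.9 CPM against 8.69, 11.3 and 14.2 (log2 fold change 1.13, SE 0.24, adjusted p = 0.0382, edgeR). Chrnd kept its call only without 1wk SBI + Lac replicate 2 and Musk only without 3wk SBI replicate 3, with edgeR adjusted p-values in the other fits up to 0.0838 and 0.141. Runx1, a factor raised in denervated fibers, had 19.8, 11.2 and 12.5 CPM against 6.54, 7.12 and 5.82 and missed the threshold (log2 fold change 1.18, SE 0.33, adjusted p = 0.116, edgeR). Of the ubiquitin ligases of atrophy, Trim63 was within 2-fold (-0.49 to 0.25) and Fbxo32 overlapped between the groups at 202, 126 and 89 CPM against 174, 183 and 124.

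The promoter of Chrnd is shown because receptor subunit genes are classic targets of E-box binding myogenic factors. The 250 bases before its start, on the plus strand at chr9:95310066-95310315 of RefSeq's GRCr8, hold CACCTG (capitals; both strands searched) 1 time, 79 bases before the start, as do 15.9% of 33469 promoters of that length; the build behind the counts is not stated and no binding was measured.
Chrnd: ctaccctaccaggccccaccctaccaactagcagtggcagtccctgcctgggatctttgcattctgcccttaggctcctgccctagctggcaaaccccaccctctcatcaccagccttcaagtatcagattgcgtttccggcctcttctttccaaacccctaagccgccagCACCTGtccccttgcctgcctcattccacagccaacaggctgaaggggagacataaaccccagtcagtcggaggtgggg

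Ankrd1, a titin-binding protein of mechanically stressed muscle, had 284, 151 and 238 CPM in 1wk SBI + Lac against 55.7, 30.6 and 54.5 in 3wk SBI, a log2 fold change of 2.26 ± 0.28 (SE, adjusted p = 0.00315, edgeR). The 1wk SBI values of 404, 273 and 276 overlapped those of 1wk SBI + Lac. Klk1, the tissue kallikrein that frees kinins, had 30.9, 19.7 and 33.3 CPM against 6.76, 4.64 and 6.48 (log2 fold change 2.23, SE 0.33, adjusted p = 0.0102, edgeR) and 85.8, 71.3 and 34.3 in 1wk SBI. Tubb6, a beta-tubulin of regenerating and diseased fibers, had 124, 70.2 and 112 against 29.8, 26.7 and 37.8 CPM (log2 fold change 1.68, SE 0.26, adjusted p = 0.00949, edgeR). Clu, the secreted chaperone clusterin, had 371, 207 and 265 against 81.5, 86.9 and 84.3 CPM (log2 fold change 1.74, SE 0.21, adjusted p = 0.00221, edgeR). In each of these genes all 3 lactating libraries exceeded all 3 late ones. Ankrd1, Tubb6 and Clu kept the call in all 6 fits that left out a library, and Klk1 lost it without 3wk SBI replicate 3 (edgeR adjusted p = 0.0518). Tnfrsf12a, the receptor for the cytokine TWEAK, and Map1a, a microtubule-binding protein, were called higher too, with log2 fold changes of 1.04 and 1.34. The first was lost in 5 of the 6 fits, all but that without 3wk SBI replicate 1 (adjusted p up to 0.113), and the second without 1wk SBI + Lac replicate 1 or 3wk SBI replicate 3 (adjusted p = 0.0518 and 0.0566, edgeR). Slc51a, a subunit of a bile acid and steroid transporter, stood among the largest folds, at 16.8, 5.32 and 8.15 CPM against 1.29, 0.743 and 1.37 (log2 fold change 3.08, SE 0.61, adjusted p = 0.0379, edgeR), but was lost in 5 of the 6, all but that without 1wk SBI + Lac replicate 2 (adjusted p up to 0.13). Its 1wk SBI values of 29.9, 15.2 and 9.51 CPM overlapped those of 1wk SBI + Lac. Gstt4, a glutathione transferase, had 2.23, 1.22 and 1.62 against 0.322, 0.31 and 0.192 CPM (log2 fold change 2.78, SE 0.49, adjusted p = 0.0108, edgeR) and was lost without 1wk SBI + Lac replicate 1 or 3wk SBI replicate 3 (adjusted p up to 0.0625, edgeR). Its 1wk SBI values of 2.93, 1.69 and 1.31 CPM likewise overlapped those of 1wk SBI + Lac.

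Metallothioneins, small proteins that bind zinc and copper and respond to metals and glucocorticoids, were both higher in 1wk SBI + Lac. Mt1 had 15.7, 10.9 and 17.8 CPM against 3.33, 2.41 and 4.36 in 3wk SBI, a log2 fold change of 2.08 ± 0.34 (SE, adjusted p = 0.0108, edgeR), kept in all 6 fits that left out a library. Mt2A had 20.8, 12.7 and 17.4 CPM against 5.47, 2.85 and 4.38 (log2 fold change 2.02, SE 0.35, adjusted p = 0.0154, edgeR), and lost its call without 1wk SBI + Lac replicates 1 or 3 or 3wk SBI replicates 2 or 3, at edgeR adjusted p-values from 0.0523 to 0.0746. In 1wk SBI the levels overlapped those of lactating muscle, at 14, 22.3 and 9.04 CPM of Mt1 and 14.7, 28.9 and 10.9 of Mt2A, and the log2 fold changes of 1wk SBI + Lac over 1wk SBI were -0.026 and -0.10 (adjusted p = 0.975 and 0.895, edgeR). They were the only members called among 24 glucocorticoid-responsive genes, whose median was 0.12 (from -0.019 without 1wk SBI + Lac replicate 2 to 0.28 without 3wk SBI replicate 1), with 15 intervals within 2-fold; 1wk SBI over 3wk SBI gave -0.52 and 1wk SBI + Lac over 1wk SBI 0.52. Fkbp5 and Tsc22d3 were among the 15 members within 2-fold, whereas Glul lay above every 3wk SBI library. Fkbp5, a co-chaperone that the glucocorticoid receptor induces, had 17.8, 22.5 and 11.9 CPM in 1wk SBI + Lac, as against 17.8, 13.4 and 14.3 in 3wk SBI and 6.41, 6.12 and 7.1 in 1wk SBI, with an interval of -0.23 to 0.65. Tsc22d3, another direct target, was within 2-fold at -0.03 to 0.57. Glul, glutamine synthetase, had 1206, 1286 and 941 CPM against 808, 844 and 616 without overlap and was not called (log2 fold change 0.60, SE 0.19, adjusted p = 0.149, edgeR).

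The promoters of the paired metallothionein genes are shown because both genes moved together and carry the core of the metal response element, TGCNCNC (capitals, either strand, matches may adjoin). The windows are the 250 bases before the start on the minus strand, chr19:10832976-10833225 for Mt1 and chr19:10838709-10838958 for Mt2A in RefSeq's GRCr8. The first holds 7 matches and the second 5. At least 1 match is found in 43.4% of 33469 promoters, at least 5 in 0.37% and at least 7 in 0.0598%, and a match is a run of letters, not a measured site.
Mt1: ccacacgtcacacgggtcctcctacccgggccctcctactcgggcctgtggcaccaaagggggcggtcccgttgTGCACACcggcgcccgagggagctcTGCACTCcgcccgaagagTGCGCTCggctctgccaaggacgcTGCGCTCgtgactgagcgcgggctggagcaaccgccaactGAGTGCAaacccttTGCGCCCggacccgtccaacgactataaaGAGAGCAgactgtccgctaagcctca
Mt2A: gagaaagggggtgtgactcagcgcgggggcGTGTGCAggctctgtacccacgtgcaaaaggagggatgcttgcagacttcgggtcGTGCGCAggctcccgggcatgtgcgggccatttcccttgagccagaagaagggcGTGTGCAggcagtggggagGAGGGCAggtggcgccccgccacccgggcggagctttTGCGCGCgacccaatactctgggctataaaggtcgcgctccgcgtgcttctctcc

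Globin genes and 2 other red cell genes were higher in early lactating muscle. Of 8 tested erythroid genes 4 were called higher (0.274% of all genes tested), 2 of the other 4 lay below 0, with a summed level of the 8 of 1325 to 1604 CPM in 1wk SBI + Lac against 849 to 921 in 3wk SBI. Hemoglobin genes took up 0.0583 to 0.0767% of counts in 1wk SBI + Lac, as against 0.00904 to 0.0202% in 3wk SBI and 0.0313 to 0.0429% in 1wk SBI, and Rhag of this list was at 0 in all 6 libraries. Hba-a1, an alpha-globin, had 437, 403 and 308 CPM against 50.6, 83.6 and 102 (log2 fold change 2.27, SE 0.30, adjusted p = 0.00501, edgeR), and Hbb, a beta-globin, 332, 338 and 243 against 46.6, 62.4 and 79.6 (log2 fold change 2.27, SE 0.27, adjusted p = 0.00285, edgeR). Near-identical globin copies can share reads. Alas2, the first enzyme of heme synthesis in red cell precursors, had 8.66, 6.1 and 3.99 CPM against 0.107, 1.11 and 1.7 (log2 fold change 2.40, SE 0.49, adjusted p = 0.0302, edgeR). Slc4a1, the anion exchanger of the red cell membrane, rested on 47, 42 and 28 counts in 1wk SBI + Lac against on 0, 0 and 10 in 3wk SBI (log2 fold change 3.93, SE 0.77, adjusted p = 0.0204, edgeR). Both globins kept the call without any 1 of the 6 libraries, while Alas2 and Slc4a1 each lost it without 1wk SBI + Lac replicates 1 or 2 or 3wk SBI replicate 2 (edgeR adjusted p up to 0.135 and 0.0851). Library sizes that leave out mitochondrially encoded, milk and erythroid genes gave the same 57 calls. Blood content of the muscle was not measured, and its part in other genes was not tested.

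Macrophage genes lay below the later level with all libraries in and not without 3wk SBI replicate 3. Of 29 macrophage and monocyte genes 26 were below 0 with a median of -0.34, 15 intervals were within 2-fold and none was called; without that library 18 were above 0 and 11 below, the median was 0.093 and 21 were within 2-fold. Csf1r, the receptor macrophages need to survive, had 64.7, 53 and 79.3 CPM in 1wk SBI + Lac against 55.1, 54.6 and 103 in 3wk SBI (interval -0.60 to 0.36). Cd163, a scavenger receptor of resident macrophages, was within 2-fold at -0.44 to 0.52. Gpnmb, a glycoprotein of lipid-laden macrophages, had 45.4, 53.6 and 57.9 CPM against 46.8, 60.2 and 61.7, with 135, 215 and 133 in 1wk SBI and an interval of -0.55 to 0.33. Cd68, a lysosomal protein of phagocytes, did not overlap at 16.1, 11.7 and 17 CPM against 17.2, 18.3 and 27.7, but stayed within 2-fold (-0.94 to -0.11).

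Dendritic cell and MHC class II genes lay below the later level too, with 18 of 18 below 0, 8 of them without overlap (7.54% of all genes tested), a median of -0.72 and no call. Leaving out 3wk SBI replicate 3 gave 15 of 18 below 0 and a median of -0.41. Cd74, the invariant chain of class II molecules, had 219, 164 and 232 CPM against 233, 256 and 435 (log2 fold change -0.59, SE 0.23, adjusted p = 0.25, edgeR). Itgax, the integrin CD11c, had 0.689, 0.542 and 1.19 CPM against 1.5, 2.85 and 2.35 (log2 fold change -1.47, SE 0.51, adjusted p = 0.189, edgeR). All 3 lactating libraries lay below all 3 late ones in both genes.

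T cell genes were too sparse to place. None of 26 had an interval within 2-fold, none was called, 25 were below 0, and the median of -1.27 shrank to -0.40 with 16 of 26 below 0 once 3wk SBI replicate 3 was left out. Cd3e, a chain of the T cell receptor complex, had 0.262, 0.0339 and 0.119 CPM against 0.429, 0.186 and 1.74. Cd8b, a chain of the cytotoxic co-receptor, had 0.131, 0.339 and 0.119 CPM against 1.07, 0.495 and 0.768 and 0.929, 0.675 and 0.773 in 1wk SBI (log2 fold change -1.97, SE 0.57, adjusted p = 0.108, edgeR over 3wk SBI). Among 9 tested genes of regulatory T cells 5 were within 2-fold, and Foxp3, their defining factor, had 2.49, 2.2 and 1.39 CPM in 1wk SBI + Lac, as against 1.72, 2.41 and 1.57 in 3wk SBI and 0.609, 0.894 and 1.62 in 1wk SBI, an interval of -0.65 to 0.85.

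Of the other immune lists, leukocyte adhesion had a median of -0.29 over 13 genes with 8 within 2-fold, pro-inflammatory cytokines and chemokines -0.17 over 18 with 1 within 2-fold, and interferon-stimulated genes -0.21 over 27 with 11 within 2-fold, and none of their genes was called, although 1 adhesion gene was called lower without 3wk SBI replicate 1 and 1 interferon gene without 1wk SBI + Lac replicate 1. Leaving out 1 library moved the adhesion median from -0.57 without 3wk SBI replicate 2 to -0.10 without 3wk SBI replicate 3, the cytokine median from -0.66 without 1wk SBI + Lac replicate 1 to -0.062 without 3wk SBI replicate 3 and the interferon median from -0.72 without 1wk SBI + Lac replicate 1 to 0.011 without 1wk SBI + Lac replicate 2. Without 1wk SBI + Lac replicate 3 the interferon median was 0.0022, and without 3wk SBI replicate 3 the adhesion list held 7 and the cytokine list 2 of 17 genes within 2-fold. Mx1, an antiviral GTPase, had 24.1, 5.83 and 7.05 CPM in 1wk SBI + Lac against 22.8, 8.24 and 8.91 in 3wk SBI. Anti-inflammatory and repair genes had a median of 0.10 (from -0.013 without 3wk SBI replicate 1 to 0.23 without 3wk SBI replicate 3) over 17 genes, with 10 within 2-fold and Nfil3 called higher. The 21 genes that the study names for 1 week, which it chose on some of these same libraries, so that they cannot serve as independent evidence, and which it names for either direction, so that their median mixes both, had a median of -0.71, with 16 below 0, 2 within 2-fold and 1 call, and 0.015 with 10 below 0 without 3wk SBI replicate 3. Il15, a cytokine that muscle fibers make, had 16.7, 18.9 and 13.5 CPM in 1wk SBI + Lac, as against 14.1, 14.3 and 11.8 in 3wk SBI and 4.9, 7.56 and 10.5 in 1wk SBI, an interval of -0.17 to 0.77. Alox15, a lipoxygenase that makes pro-resolving lipids, had 33, 69 and 46 counts against 0, 0 and 27, and missed the threshold at a log2 fold change of 3.02 ± 0.72 (SE, adjusted p = 0.0513, edgeR).

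Among the 17 genes called lower, Mmp12, the elastase of macrophages, had 3, 0 and 0 counts in 1wk SBI + Lac against 5, 18 and 239 in 3wk SBI, a ratio of summed counts per effective library size of 81.8 in favour of 3wk SBI (95% interval 27.7 to 399, counting error only). Of the 262 counts in 3wk SBI 239 came from replicate 3, and the ratio without that library was 30.7 (9.26 to 159). In 1wk SBI it had 0.497, 0.911 and 0.914 CPM and in 3wk SBI + Lac 0, 0.0488 and 0. Its call was kept in all 6 fits that left out a library, at an edgeR adjusted p of 0.00949 in the full model. Siglec10, an inhibitory lectin of leukocytes, had 0.131, 0.576 and 0.764 CPM against 4.29, 1.11 and 3.76 (log2 fold change -2.60, SE 0.57, adjusted p = 0.0346, edgeR), and Jaml, an adhesion protein of leukocytes, 0.787, 0.509 and 0.669 against 2.36, 1.55 and 2.2 (log2 fold change -1.63, SE 0.33, adjusted p = 0.0226, edgeR). In 1wk SBI Siglec10 had 1.89, 3.12 and 1.38 CPM and Jaml 1.94, 2.4 and 2.06. In 3wk SBI + Lac Siglec10 had 0.456, 0.602 and 0.33 CPM and Jaml 0.781, 0.569 and 0.55. Siglec10 kept its call only without 3wk SBI replicate 2, and Jaml only without 3wk SBI replicates 1 or 2, at adjusted p-values up to 0.123 and 0.103 (edgeR) in the other fits. Dnase1l3, a nuclease secreted by dendritic cells and macrophages, was called at a log2 fold change of -1.55 and lost in 4 of the 6, all but those without 3wk SBI replicates 1 or 3 (adjusted p up to 0.123).

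Anxa8 and Kif5a were lower in 1wk SBI + Lac than in 3wk SBI, the group with the highest values of the 4. Anxa8, an annexin that binds membranes in the presence of calcium, had 0.459, 0.339 and 0.43 CPM in 1wk SBI + Lac against 11.2, 4.95 and 4.84 in 3wk SBI (log2 fold change -4.05, SE 0.41, adjusted p = 0.000271, edgeR), with 0.336, 0.371 and 0.351 in 1wk SBI and 1.11, 0.781 and 0.44 in 3wk SBI + Lac. Kif5a, a kinesin motor of axons, had 6.36, 6.2 and 6.95 CPM against 27.6, 19.5 and 17.6 (log2 fold change -1.71, SE 0.25, adjusted p = 0.00509, edgeR), with 6.01, 4.28 and 7.31 in 1wk SBI and 11.8, 13.7 and 6.6 in 3wk SBI + Lac. Each kept the call in all 6 fits. In both genes every 3wk SBI library lay above every library of the other 3 groups, including 3wk SBI + Lac. Both 3-week groups hold estimated counts, and the part of counting in the difference was not tested. Schwann cell and nerve genes, with a median of -0.37 over 12 and 2 within 2-fold, included no call, and leaving out 1 library moved the median from -0.58 without 3wk SBI replicate 1 to -0.019 without 3wk SBI replicate 2. Necab1, a calcium-binding protein of neurons, was lower at 0.0656, 0.136 and 0.263 CPM against 1.18, 0.929 and 2.35 (log2 fold change -3.25, SE 0.67, adjusted p = 0.025, edgeR), and Ranbp3l, a nuclear transport factor, at 0.623, 0.509 and 0.334 against 3, 1.61 and 2.22 (log2 fold change -2.21, SE 0.45, adjusted p = 0.0242, edgeR). Both kept the call only without 3wk SBI replicates 1 or 2, with edgeR adjusted p-values up to 0.129 and 0.112 in the other 4 fits. Chac1, which degrades glutathione under amino acid stress, was lower at 12.9, 12.7 and 9.17 CPM against 43.6, 28.7 and 27.9 (log2 fold change -1.52, SE 0.28, adjusted p = 0.0215, edgeR), and lost its call without any 1 of the 3 libraries of 1wk SBI + Lac (adjusted p up to 0.0882, edgeR).

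Rbm3, called lower, and Nfil3, called higher, were among the genes called in 1wk SBI + Lac over both non-lactating groups. Others were Mmp12 and Jaml, lower over 1wk SBI at log2 fold changes of -4.5 and -1.70 (adjusted p = 0.0472 and 0.0302, edgeR). The Hist1h4m identifier ENSRNOG00000064025 was higher over 1wk SBI too (log2 fold change 1.44, adjusted p = 0.0235, edgeR). Rbm3, an RNA-binding protein induced by mild cold, had 20.3, 22.7 and 25.3 CPM in 1wk SBI + Lac, as against 80.5, 59.6 and 65.4 in 3wk SBI and 59.1, 68.8 and 52.2 in 1wk SBI. In 3wk SBI + Lac it had 28.6, 34.8 and 34 CPM, also below every non-lactating library. Its log2 fold change over 3wk SBI was -1.58 ± 0.14 (SE, adjusted p = 6.35e-05, edgeR). Over 1wk SBI, which like 1wk SBI + Lac holds whole counts, it was -1.40 (adjusted p = 0.000577, edgeR). The part of counting was not tested. Cirbp, the other well-known cold-induced RNA-binding protein, was within 2-fold of 3wk SBI (-0.47 to -0.012). Nfil3, a transcription factor of immune cells and the clock, had 24.3, 25.2 and 21.3 CPM against 12, 11.6 and 8.37 in 3wk SBI and 11.3, 10.9 and 12.6 in 1wk SBI, a log2 fold change of 1.18 ± 0.15 (SE, adjusted p = 0.00215, edgeR) over 3wk SBI and 1.02 (adjusted p = 0.00994, edgeR) over 1wk SBI. Without 3wk SBI replicate 3 its log2 fold change over 3wk SBI was 0.9985, just under the limit of 1. The study also lists Nfil3 as higher with lactation at 3 weeks. Cish, a feedback inhibitor that prolactin, growth hormone and other STAT5 signals induce, was lower at 7.61, 8.2 and 4.47 CPM against 19.4, 17.5 and 17.7 (log2 fold change -1.43, SE 0.24, adjusted p = 0.012, edgeR), kept in all 6 fits, with 12.6, 14.9 and 11.6 in 1wk SBI (-0.95 over 1wk SBI, adjusted p = 0.0708, edgeR, not called). Rbm3 kept its call in all 6 fits as well.

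The promoter of Cish is shown because it is a textbook STAT5 target. The 250 bases before its start, on the plus strand at chr8:116850719-116850968 of RefSeq's GRCr8, hold the STAT core TTCNNNGAA (capitals) 4 times, against at least 1 match in 7.67% and at least 4 in 0.00598% of 33469 promoters of the same length. The motif reads the same on both strands, and no STAT5 binding was measured.
Cish: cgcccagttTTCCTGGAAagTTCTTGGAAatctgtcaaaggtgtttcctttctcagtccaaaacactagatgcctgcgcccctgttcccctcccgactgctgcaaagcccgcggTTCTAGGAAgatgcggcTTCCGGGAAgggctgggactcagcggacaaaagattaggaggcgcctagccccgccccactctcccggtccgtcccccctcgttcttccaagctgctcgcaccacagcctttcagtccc

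Milk transcripts were traces. Of 14 listed genes of milk and mammary epithelium 5 had enough counts to be tested, none was called, and Cldn3 was at 0 in all 6 libraries. Csn2, the main casein, had 8, 38 and 45 counts in the libraries of 1wk SBI + Lac and 0 in all 3 of 3wk SBI, at least 32.4-fold higher against a floor of 3 counts over the group (edgeR adjusted p = 0.366). The summed CPM of the 5 genes was 0.853 to 3.32 in 1wk SBI + Lac against 0.6 to 2.36 in 3wk SBI.

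**Figure D4:**
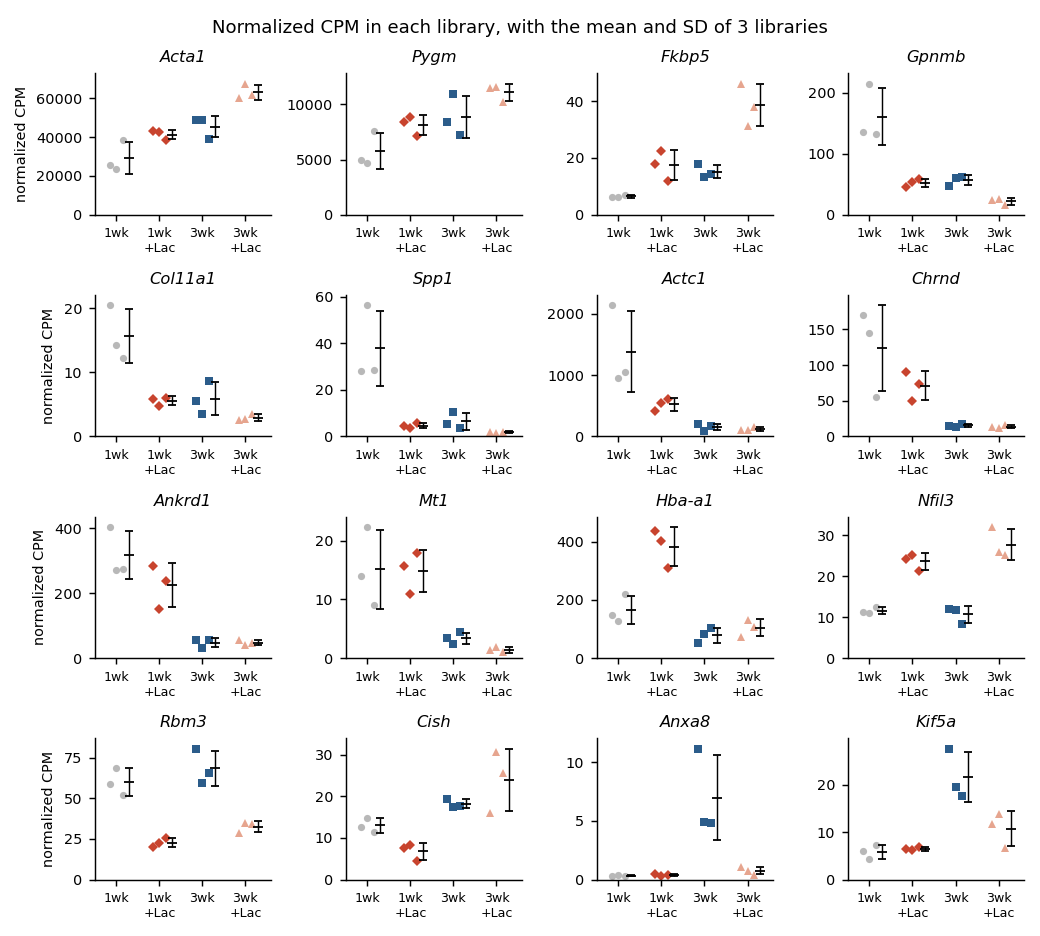
Normalized CPM (vertical, from 0) of 16 named genes in the 3 libraries of each group, 1 symbol per library, with the mean and SD of 3 libraries beside them. Acta1, Pygm, Fkbp5, Gpnmb, Col11a1 and Spp1 overlap between 1wk SBI + Lac and 3wk SBI, Actc1 to Nfil3 are higher in 1wk SBI + Lac, and Rbm3, Cish, Anxa8 and Kif5a are lower.

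The remaining 6 libraries gave a course from early to late that shares no library with the comparison above. It runs from non-lactating to lactating muscle, and the comparison above from lactating to non-lactating, so lactation enters the 2 with opposite sign. Genes picked for a large difference in this course favour those where lactation and time add up. In the comparison above the 2 then offset each other, so medians near 0 are partly set by the design. Between 1wk SBI and 3wk SBI + Lac, 973 genes were higher (6.67%) and 278 lower (1.9%) at 1 week. The 973 had a median log2 fold change of 1.60 there and of -0.00011 in 1wk SBI + Lac over 3wk SBI. In the latter 18 were called higher, 3 lower, and 347 (35.7%) had an interval within 2-fold. For the 278 the medians were -1.28 and -0.0081, with 2 called lower, 4 higher and 182 (65.5%) within 2-fold. Without 3wk SBI replicate 3 the sets held 1054 and 301 genes, and their medians in 1wk SBI + Lac over 3wk SBI were 0.33 and -0.15. Over all genes tested the share within 2-fold was 72.3%. Both courses cross the change in counting, and the B and plasma cell genes summed to 65.3, 281 and 8.35 CPM in 3wk SBI + Lac. Leaving out 1wk SBI + Lac replicate 1 moved the 18 and 2 calls to 5 and 2, leaving out its replicate 3 to 7 and 1, leaving out 3wk SBI replicate 2 to 9 and 2, and leaving out 1wk SBI replicate 3 to 33 and 3; without 1wk SBI replicate 1 the sets shrank to 621 and 182.

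The genes furthest above 3wk SBI + Lac in 1wk SBI among genes within 2-fold in the comparison of interest were Prc1, Gpnmb, Mest, Cpxm1, Tmem119 and Col11a1, chosen by a rule that used both contrasts, so their values are a description. Mest, an imprinted hydrolase active in growing tissue, had 8.2, 15.9 and 20.9 CPM in 1wk SBI + Lac against 10.2, 13.6 and 22.3 in 3wk SBI, between 46.2, 26.1 and 30.6 in 1wk SBI and 5.37, 4.8 and 4.84 in 3wk SBI + Lac. Col11a1, a chain of a minor fibrillar collagen, had 5.84, 4.75 and 6.02 against 5.47, 3.47 and 8.57 CPM, with 20.4, 14.3 and 12.3 and 2.54, 2.67 and 3.52 in the other 2 groups. In both genes every library of the 2 groups compared lay below every 1wk SBI library and above or within the range of 3wk SBI + Lac. Cpxm1, a secreted carboxypeptidase-like protein, and Tmem119, a membrane protein of osteoblasts and microglia, had intervals of -0.70 to 0.87 and -0.82 to 0.65. In the opposite direction stood Lrrc66, Fkbp5, Asb11, Foxp3, PCOLCE2 and Fmo2. Asb11, a ubiquitin ligase adaptor of muscle, had 75.3, 81 and 59.6 CPM against 83.7, 107 and 62.2, with 24.3, 28.8 and 42.9 in 1wk SBI and 158, 133 and 123 in 3wk SBI + Lac. PCOLCE2, which enhances procollagen cleavage, had 10.7, 10.9 and 10.5 against 9.98, 18.2 and 9.11 CPM, beside 4.33, 6.7 and 5.62 and 22.3, 24.1 and 19.6. Fmo2, a flavin monooxygenase, did not overlap at 14.6, 15.1 and 11.9 CPM against 11.3, 10.3 and 8.35, although its interval of 0.06 to 0.93 lay within 2-fold and it was not called.

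**Figure D5:**
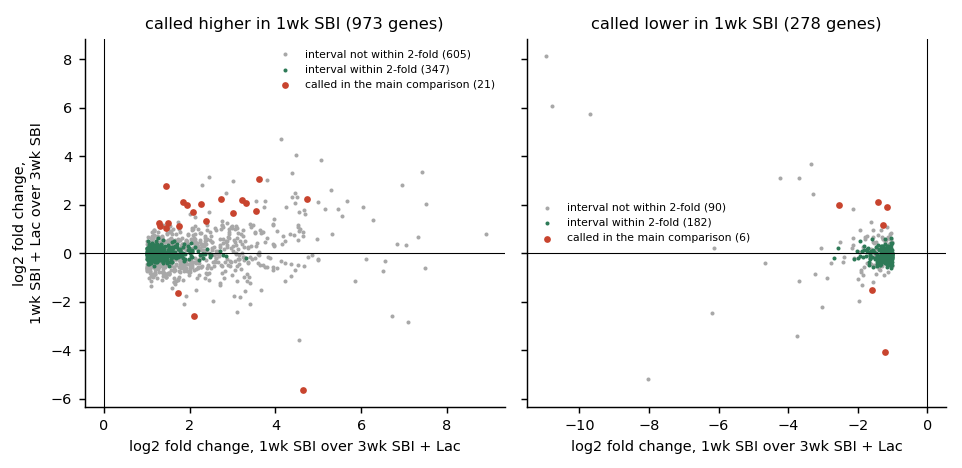
Log2 fold change of 1wk SBI + Lac over 3wk SBI (vertical) against that of 1wk SBI over 3wk SBI + Lac (horizontal) for the 973 genes called higher (left) and the 278 called lower (right) on the horizontal axis, 1 point per gene; the 2 axes share no library. Points scatter about 0 on the vertical axis, with 21 and 6 of them called there in either direction. Lactation enters the 2 axes with opposite sign.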

How the data were processed

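Messenger RNA of the pubocaudalis was sequenced from 12 libraries, 3 in each of 4 groups, with RNA of 2 rats pooled in each; groups were taken from the sample labels. The authors deposited 1 table of gene counts. Its 1-week columns hold whole counts and its 3-week columns, as deposited, hold estimated counts with decimals, which were rounded to whole numbers here. Salmon is named in the submitters' processing notes, whereas its settings, the genome build, the annotation and the reason for the unlike columns are not given in the sources used here.

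All 12 libraries were fitted together with 1 coefficient per group in edgeR 4.0.16 (limma 3.58.1, R 4.3.3), after filterByExpr and TMM normalization, by the robust quasi-likelihood test with Benjamini-Hochberg adjustment over all 14596 genes tested. The study's own cutoffs were used, an adjusted p under 0.05 with an absolute log2 fold change over 1. Standard errors were the log2 fold change over the square root of F, or from the information matrix for 83 genes with F under 1e-04. CPM values are normalized by TMM. With 3 libraries against 3 an exact permutation test cannot go below p = 0.1, so none was run. On simulated counts for 14361 genes, 87 of 100 genes changed by a log2 fold change of 1.5 and 93 of 100 changed by 2 were called, as were 3 unchanged genes, and 95.4% of intervals held the true value. The changed genes were picked among those with a mean of at least 1 CPM, and counts were drawn from the fitted dispersions. No difference in counting and no library that stands apart was simulated. These rates therefore do not carry over to sparser genes or to such features of the data.

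The comparison, its members and the 30 gene lists were chosen with earlier results of these data known. Of 601 listed symbols 578 matched by symbol, 6 through RefSeq's gene table and 17 not at all. The text names key members of the lists, per direction the 8 largest called changes with a mean of at least 1 CPM in 1 group, and per direction the 6 largest changes of 1wk SBI over 3wk SBI + Lac with an interval within 2-fold in the main comparison; other called genes, the B and plasma cell genes and the 4 promoters were chosen after their values were seen. The alternatives were other normalizations, filters, library sets, depths and tools (DESeq2 1.42.0 among them), leaving out each library, and a replicate block.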

Additional observations from a re-analysis of the deposited data

Results flagged for a closer look

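Genes with no counts at 1 week and counts at 3 weeks lay outside the comparison and numbered 30. Each had 0 in all 6 libraries taken at 1 week and between 105 and 3535 counts in sum over the 6 libraries taken at 3 weeks, and 27 of them carry an identifier without a gene symbol. No gene showed the opposite pattern, with 0 at 3 weeks and at least 100 at 1 week. Only 1 of the 30 had counts in all 3 libraries of 3wk SBI. Keeping these genes in left the 40 higher and 17 lower calls as they were. Whether the time points were counted against the same annotation was not tested.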

How the results depend on the processing

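RLE and upper-quartile normalization, genes of the counting rule kept in, and library sizes that leave out mitochondrially encoded, milk and erythroid genes each gave 40 higher and 17 lower calls, the same 57 genes. Leaving out each of the 6 libraries gave 18 to 48 higher and 7 to 22 lower, and 9902 to 10236 genes within 2-fold. At least 10 counts in every library left 11 lower. DESeq2 called 78 and 55 on all 12 libraries and 79 and 46 on the 6 compared, lowering the share of higher calls from 70.2% to 58.6% and 63.2%, while leaving out 3wk SBI replicate 2 put it at 60%. The adjusted p alone gave 166 and 56. Tested against a log2 fold change of 1 (glmTreat in edgeR), 0 genes were higher and 1 was lower, with 176 at an unadjusted p under 0.05. An interval within 1.5-fold held for 6967 genes. Among the genes with whole 3-week values alone, 8 were higher, 5 lower and 39 within 2-fold, and of 98 genes that differed between 1wk SBI and 3wk SBI + Lac 8 were within 2-fold and 5 called the same way; this set holds few abundant genes. Over the 12 libraries left out in turn, the genes that differed between 1wk SBI and 3wk SBI + Lac numbered 803 to 1521, of which 364 to 769 were within 2-fold and 7 to 36 called the same way.

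Samples with the same replicate number correlated in their deviations at 0.0413, 0.0672 and 0.202, and 2 of the 3 numbers were the best match of their own. With so few libraries per group these values cannot settle whether the numbers pair samples. The labels number the rats within each group and name no pairing between groups, so the main fit used no replicate block. With a replicate block 32 genes were higher and 9 lower, 40 of them among the 57, and 10412 were within 2-fold. Over the named genes, 246 alternatives lost a call, 17 gained one and 0 reversed. In 56 a gene stayed uncalled but its log2 fold change moved by more than the standard error of the main fit. The remaining 2619 kept the call, or its absence without such a shift. The cause was not tested. Depth limits genes under 1 CPM, of which 1.42% could be placed within 2-fold, and 3wk SBI replicate 1, at 10082734 counts, was the shallowest of the 6 libraries compared.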

Other observations

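Ribosomal protein genes were slightly above the later level, with 31 of 32 above 0, 18 without overlap (10.4% of all genes tested), 30 within 2-fold, none called and a median log2 fold change of 0.29. Smooth muscle markers had 9 of 10 above 0, 5 without overlap, none called and a median of 0.33. Endothelial markers lay near 0, with 10 of 12 within 2-fold and a median of 0.072, and adipocyte markers, with Ucp1 at 0 in all 6 libraries, had 5 of 10 within 2-fold and a median of -0.25, which leaving out 1 library moved from -0.59 without 1wk SBI + Lac replicate 2 to -0.017 without 3wk SBI replicate 3. Without 3wk SBI replicate 3 the smooth muscle median was 0.49 and the endothelial one 0.18.

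Genes of lipid and cholesterol synthesis had 15 of 20 within 2-fold and a median of 0.031, with no call. Of 18 circadian clock genes, which depend on the hour of sampling, 10 were within 2-fold, 6 were lower without overlap (7.54% of all genes tested), Nfil3 was called higher and the median was -0.19 (-0.29 without 3wk SBI replicate 3, where Nfil3 was not called). Immediate early and heat shock genes had 12 of 18 within 2-fold, a median of 0.061 (from -0.076 without 1wk SBI + Lac replicate 1 to 0.17 without 1wk SBI + Lac replicate 2, leaving out 1 library) and 1 call, Rbm3 lower. The hour of sampling is not given in the sources used here, and its part was not tested.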
